A study of Mus musculus with 19 samples.

Results

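The inflammasome, interleukin 1 (IL1) and tumour necrosis factor (TNF) genes described here are 10 genes chosen by symbol: the sensors Nlrp3 and Aim2, the adaptor Pycard, the protease Casp1, the ligands Il1a, Il1b, Il18 and Tnf, the receptor Il1r1 and the receptor antagonist Il1rn. All 10 were found among the 36172 genes of the deposited count table, each under 1 row, and 9 of them were among the 15518 genes with enough reads to test. Tnf was too low for that filter. The libraries are bulk RNA-seq of whole ovaries from female C57BL/6 mice, an inbred laboratory strain, at 3 months (n = 5), 6 months (n = 5), 9 months (n = 5) and 12 months (n = 4). The labels name no allele, treatment or other agent in any age group, give neither oestrous stage nor batch, and carry library numbers that follow age. The labels do not say whether those numbers record handling order, which, if so, could not be told apart from age. They do not say whether a library is 1 animal, so p-values measure the spread between these libraries only.

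The inflammasome is a cytosolic complex of innate immune cells, best known in macrophages and neutrophils. A sensor that meets a danger signal gathers the adaptor ASC, the product of Pycard, which in turn gathers and activates caspase-1. Caspase-1 cuts the inactive precursors of IL-1 beta and IL-18 and opens the membrane pore protein gasdermin D, whereas IL-1 alpha is active without that cut. IL-1 alpha and IL-1 beta act on the receptor encoded by Il1r1, which Il1rn blocks, and TNF acts on receptors of its own. All of these act largely through NF-kB, and in the ovary IL1 and TNF are known from studies of ovulation and of follicle loss.

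Library totals ran from 10851519 to 14302207 estimated counts. In 3 libraries, 9-month replicates 1 and 2 and 12-month replicate 2, Cr2, a complement receptor of B cells and follicular dendritic cells, lay at 6.15, 10.7 and 12.5 CPM (counts scaled to library size and composition), against 0 to 0.837 CPM in the other 16. Summed over 13 lymphocyte and lymph node markers those 3 libraries held 265 to 415 CPM and the others 70.4 to 129 CPM, so the edgeR tests below were also run without them. Of the 13 markers 10 rose and 0 fell at 12 against 3 months and 13 rose along the trend, and without those libraries 6 of the 12 then tested rose in both, with median log2 changes of 0.97 and 0.99. At 9 against 3 months 11 of the 13 rose, and 3 of 12 without those libraries. Leaving out 12-month replicate 2 alone left 1 that rose at 12 against 3 months, and leaving out 9-month replicate 2 alone left 3 at 9 against 3 months. The part of lymphocyte transcripts in the results below was not tested. The 14 macrophage and monocyte markers, all above 0 in every library, summed to 510 to 828 CPM in 3-month libraries, 564 to 710 in 6-month, 665 to 1344 in 9-month and 764 to 1202 in 12-month libraries. The 10 neutrophil markers summed to 8.98 to 15.8 CPM over all libraries, with Ly6g at 0 in all 19, Ngp in 18, Elane and Mpo in 16 and Retnlg in 15. Cxcr2, at 4.26 to 8.54 CPM, and Csf3r, at 2.02 to 7.97 CPM, were above 0 in every library. Of these 10 markers 3 were tested and 0 passed at 12 or 9 against 3 months by edgeR, also at an unadjusted p under 0.05. The 10 ovary markers summed to 1570 to 3291 CPM at 12 months and 2649 to 3561 CPM at 3 months, and 4 of them (Gdf9, Zp3, Amh and Cyp17a1) fell and 1, Lhcgr, rose at 12 against 3 months, Lhcgr being named after its values were seen. The samples also held oviduct transcripts, with the oviduct glycoprotein gene Ovgp1 at 3580 ± 1170 CPM in 12-month libraries (SD, n = 4), against 2070 ± 452 CPM in 3-month libraries (SD, n = 5). Of the 8 oviduct, adipose and liver markers 2 rose and 1 fell at 12 against 3 months, where 10.9% and 11.5% of all tested genes did. Mean CPM at 12 months was 11.1 for Tekt4 and 10.4 for Lep, against 6.31 and 37.7 at 3 months. Over all libraries Alb ranged from 0.145 to 362 CPM and Adipoq from 23.2 to 269 CPM. The part of these tissues in the results below was not tested.

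Casp1 and Pycard, which stand next to each other in the inflammasome, were higher at 12 and 9 months than at 3 months, and Il18, one of the cytokines caspase-1 matures, was highest at 9 months. The sensors Nlrp3 and Aim2, the ligands Il1a and Il1b, the antagonist Il1rn and the receptor Il1r1 passed the threshold in none of the 6 comparisons. At 12 against 3 months 2 of the 9 tested genes rose and 0 fell, where 10.9% of all tested genes rose and 11.5% fell (edgeR's quasi-likelihood test, Benjamini-Hochberg adjusted p under 0.05). At 9 against 3 months 3 rose and 0 fell, against backgrounds of 11.3% and 13.6%. Along the linear trend over age 3 rose and 0 fell, against 14.7% and 14.8%. The median log2 change of the 9 genes was 0.42 at 12 against 3 months and 0.57 at 9 against 3 months, while that of all tested genes was 0.02 and 0.01. The 9 genes had medians of 0.27 and 0.40 when the 3 libraries high in Cr2 were left out. Without the 3 libraries high in Cr2 the counts were 2, 1 and 2 for these comparisons. Leaving out 1 library gave 1 to 2, 2 to 3 and 2 to 5, with 1 at 12 against 3 months when 12-month replicate 1 was left out and 5 along the trend when 12-month replicate 4 was. The comparisons with 3 months share those 5 libraries.

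**Figure D1:**
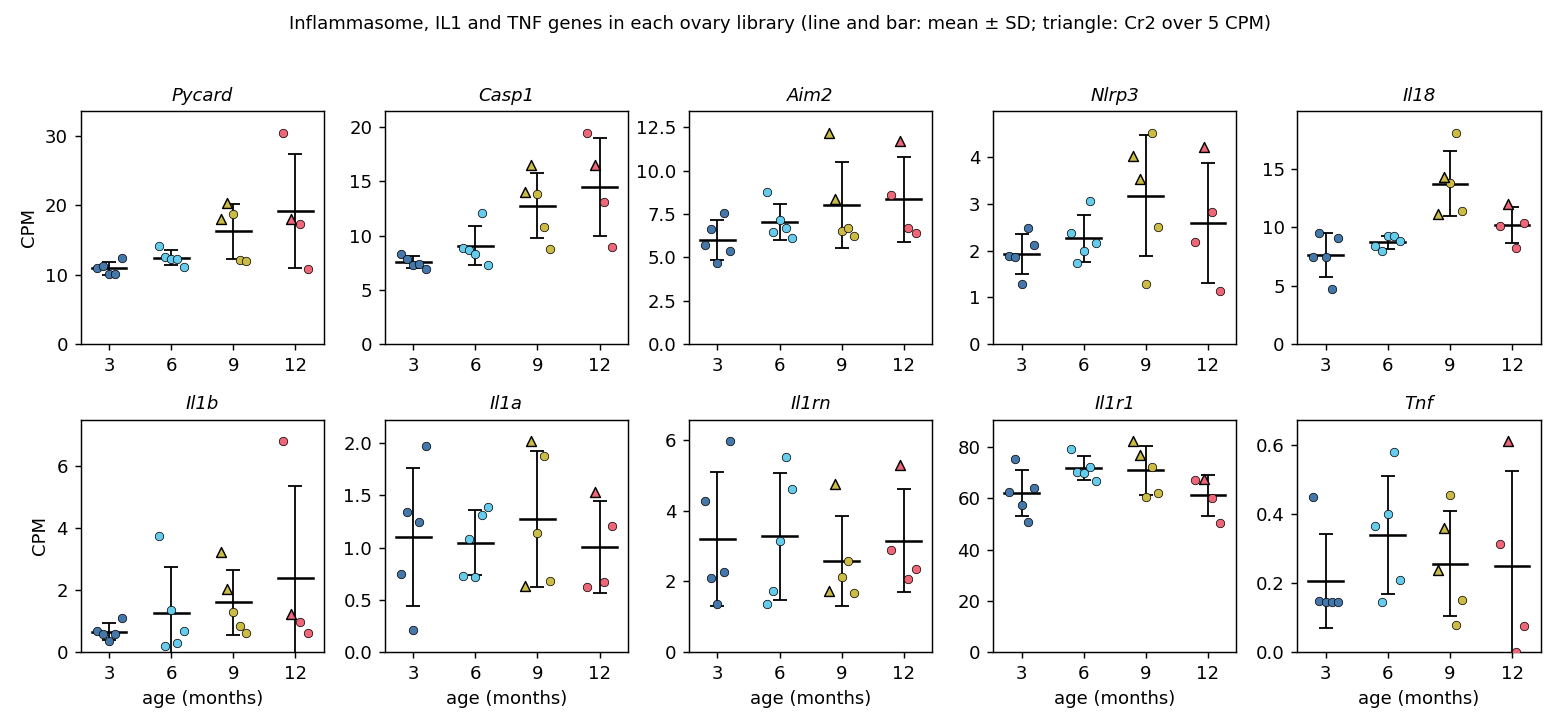
CPM of each of the 10 genes (vertical axes, linear, starting at 0) in every library by age in months; the line and bar are the mean ± SD, with bars cut at 0, and triangles are the 3 libraries with Cr2 over 5 CPM. Casp1 in the 12-month libraries lies at 8.99 to 19.5 CPM, above the 6.92 to 8.33 CPM of the 3-month libraries, and Il18 is highest at 9 months.

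Casp1 encodes caspase-1, the protease of the complex, on chromosome 9 (RefSeq, GRCm38.p6, the build that mm10 also names, positions 5298517 to 5307281, plus strand). Casp1 had 19.5, 16.5, 13.1 and 8.99 CPM in the 12-month libraries, against 8.33, 7.85, 7.25, 7.43 and 6.92 CPM in the 3-month libraries. Every 12-month library lay above every 3-month one, a pattern shared by 6.72% of the tested genes, although 12-month replicate 4 was only just above. The change was 1.92-fold, a log2 change of 0.94 ± 0.20 (SE, adjusted p = 0.00448 by edgeR's quasi-likelihood test). The 9-month libraries held 14, 16.5, 13.8, 10.8 and 8.75 CPM, again all above the 3-month ones, with a log2 change of 0.75 ± 0.20 (SE, edgeR adjusted p = 0.00905). Non-overlap of that kind was seen in 5.52% of tested genes at 9 against 3 months. The 6-month libraries, at 8.86, 8.66, 8.34, 12.1 and 7.32 CPM, overlapped both neighbouring ages. Along the trend the log2 change over 9 months of age was 1.01 ± 0.19 (SE, edgeR adjusted p = 0.00105). Leaving out any 1 library ended none of these 3 calls. Without the 3 libraries high in Cr2 the change at 12 against 3 months was 0.87 (edgeR adjusted p = 0.00714), and that at 9 against 3 months was 0.57 and did not pass (edgeR adjusted p = 0.0745).

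Pycard encodes ASC, the adaptor that joins sensor and caspase, on chromosome 7 (positions 127991373 to 127993867, minus strand). Pycard had 30.5, 18, 17.3 and 10.9 CPM in the 12-month libraries, against 11, 11.2, 10.1, 10.1 and 12.4 CPM in the 3-month libraries. The ages overlapped, since 12-month replicate 4 sat inside the 3-month range while replicate 1 stood far above all others. The log2 change was 0.80 ± 0.21 (SE), or 1.75-fold (edgeR adjusted p = 0.013). Without 12-month replicate 1 it was 0.49 and did not pass (edgeR adjusted p = 0.0685). No other single library ended that call. The 9-month libraries had 18.1, 20.3, 18.7, 12.1 and 12.0 CPM, so 3 lay well above the 3-month range and the remaining 2 within it. That comparison passed narrowly, at 0.57 ± 0.20 (SE, edgeR adjusted p = 0.048), and held in 4 of 8 alternative fits and in 7 of 19 fits that left out 1 library, with edgeR adjusted p from 0.0155 to 0.112 among the 19. Without the libraries high in Cr2 it was 0.40 (edgeR adjusted p = 0.253). The trend, at 0.84 ± 0.19 (SE, edgeR adjusted p = 0.00358), passed in every alternative and with any 1 library left out.

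The spread of both genes between libraries was wider at the older ages, and so was the spread over all genes. Between pairs of libraries of 1 age, over genes with at least 20 counts, chi-square over degrees of freedom was 7.99 to 18.1 at 3 months. It was 5.11 to 14.28 at 6 months, 11.66 to 38.81 at 9 months and 13.63 to 35.11 at 12 months. For Pycard the coefficients of variation at 3, 6, 9 and 12 months were 8.51%, 8.58%, 24.1% and 42.8%, and for Casp1 7.23%, 19.9%, 23.7% and 31.2%. At 9 and at 12 months the same library was highest for both, replicate 2 and replicate 1. At 3 months replicate 5 had the most Pycard, 12.4 CPM, and the least Casp1, 6.92 CPM. At 6 months Pycard was highest in replicate 1 and Casp1 in replicate 4. Over the 19 libraries the log2 CPM of Pycard and Casp1 correlated at r = 0.90, and at 0.82 after the age means were removed. Casp1 was the second most similar of all tested genes to Pycard, while Pycard had rank 11 among those most similar to Casp1. The ratio of Casp1 to Pycard CPM ran from 0.641 to 0.915 at 12 months and from 0.559 to 0.760 at 3 months.

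Because these genes passed the threshold, the 250 bases before the transcription start are shown for Casp1 and Pycard, which varied together, and for Il18, which followed another course with age. All are from RefSeq on GRCm38.p6, read 5′ to 3′ on the strand of the gene. Capitals mark a GAGGAA element, the core that the myeloid factor PU.1 recognises, here on the opposite strand in Casp1 and Pycard, and a TATAAA element, also on the opposite strand, in Il18. The Casp1 window is chr9:5298267-5298516 (plus strand), the Pycard window chr7:127993868-127994117 (minus strand) and the Il18 window chr9:50554450-50554699 (plus strand).
Casp1: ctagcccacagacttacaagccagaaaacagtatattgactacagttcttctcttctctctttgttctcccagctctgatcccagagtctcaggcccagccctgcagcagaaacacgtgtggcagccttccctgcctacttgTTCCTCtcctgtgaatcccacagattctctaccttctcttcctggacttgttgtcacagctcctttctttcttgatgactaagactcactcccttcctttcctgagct
Pycard: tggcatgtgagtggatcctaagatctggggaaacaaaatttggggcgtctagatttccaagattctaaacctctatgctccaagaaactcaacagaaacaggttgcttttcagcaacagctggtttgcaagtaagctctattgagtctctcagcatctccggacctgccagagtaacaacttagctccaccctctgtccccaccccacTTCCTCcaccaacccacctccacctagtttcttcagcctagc
Il18: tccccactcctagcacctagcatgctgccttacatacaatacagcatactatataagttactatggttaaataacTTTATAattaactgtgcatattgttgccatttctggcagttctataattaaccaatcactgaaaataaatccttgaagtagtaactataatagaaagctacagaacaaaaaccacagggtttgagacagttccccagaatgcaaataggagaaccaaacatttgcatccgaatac
The GAGGAA element begins 108 bases before the start of Casp1 and 42 bases before that of Pycard. The TATAAA element of Il18 lies 175 bases before the start that the RefSeq table lists, and the further starts of Il18 in the GENCODE annotation were not searched. The 5 motifs were searched on both strands in the 14 windows listed for the 10 genes, some of which have several start sites, and no 2 matches overlapped. GAGGAA was in 6 of the 14 windows (Aim2, Il1a, Pycard, Casp1, Nlrp3 and Tnf) and in 23.3% of all 32851 windows. TATAAA was in 4 (Il1a, Il1b, Il18 and Tnf) and in 12.4% of all, at 31 bases before the start of Il1b and 29 before that of Tnf. The AP-1 element TGANTCA was in 2 (Il1rn and Il1a) and in 6.75% of all. The kappa-B consensus was in 2 (a second start of Il1r1 and of Nlrp3) and in 7.25% of all, and the GAS element TTCNNNGAA was in 0 of the 14 and in 7.02% of all. These matches are descriptions of letters in short windows.

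Il18 encodes a cytokine of the IL1 family that many epithelial cells and macrophages keep as a precursor, on chromosome 9 (positions 50554700 to 50581841, plus strand). Il18 had 11.1, 14.3, 13.8, 18.1 and 11.4 CPM in the 9-month libraries, against 7.43, 9.49, 7.46, 4.74 and 9.11 CPM in the 3-month libraries. No 9-month library reached down to the highest 3-month one, as in 5.52% of tested genes. The log2 change was 0.85 ± 0.17 (SE), or 1.80-fold (edgeR adjusted p = 0.00163). The 6-month libraries had 8.41, 7.94, 9.22, 9.21 and 8.79 CPM, all below the 9-month ones, which is a non-overlap seen in 4.36% of tested genes. At 9 against 6 months Il18 rose by 0.66 ± 0.17 on the log2 scale (SE, edgeR adjusted p = 0.0127). It was the 1 of the 9 genes that rose there, where 7.44% of all tested genes rose and 9.8% fell. Both Il18 calls held in all 8 alternative fits and with any 1 library left out. Casp1, at 0.49 and an edgeR adjusted p of 0.0853 at 9 against 6 months, passed there without 6-month replicate 4, 9-month replicate 5 or 12-month replicate 4.

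The 12-month libraries had 10.1, 12.0, 8.23 and 10.4 CPM of Il18, between the other ages. Against 3 months the log2 change was 0.41 ± 0.18 (SE) and did not pass (edgeR adjusted p = 0.104). Against 9 months it was -0.43 ± 0.18 (SE), with an unadjusted p of 0.0256 and an adjusted p of 0.303 by edgeR. The trend passed, at 0.65 ± 0.23 (SE, edgeR adjusted p = 0.0335). It did not pass when 3-month replicate 1, 3 or 4 was left out, with edgeR adjusted p up to 0.0762, nor without the libraries high in Cr2, where it was 0.62 (edgeR adjusted p = 0.0743).

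At 12 against 9 months 0 of the 9 genes and 0.0% of all tested genes passed by edgeR, with 1 of the 9 genes (Il18) and 2152 genes at an unadjusted p under 0.05. DESeq2 called 0 of the 9 and 256 genes there. At 6 against 3 months 0 of the 9 genes passed, against 0.0193% of all tested genes, with 0 of the 9 and 1528 genes at an unadjusted p under 0.05. DESeq2 called 0 of the 9 and 43 genes there.

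**Figure D2:**
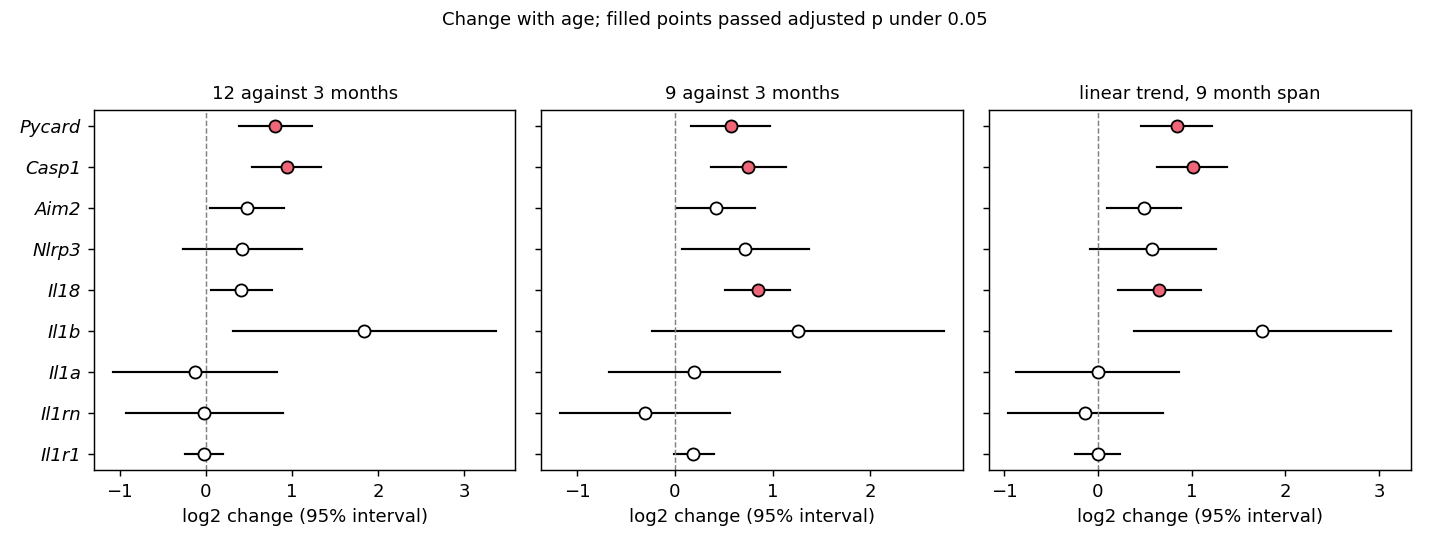
Log2 change (horizontal axes) of the 9 tested genes, with an approximate 95% interval from the SE and normal quantiles. Panels are 12 against 3 months, 9 against 3 months and the linear trend over 9 months of age. Filled points passed an adjusted p under 0.05. Casp1 and Pycard are filled in each panel, Il18 at 9 months and along the trend, and the interval of Il1b, with a log2 change of 1.84 at 12 months, is the widest.

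Nlrp3, the sensor that answers potassium loss and crystals, had 2.19, 4.21, 2.82 and 1.13 CPM in the 12-month libraries, against 1.88, 1.87, 1.29, 2.48 and 2.11 CPM in the 3-month libraries. The 12-month range enclosed the 3-month one, and the log2 change of 0.42 ± 0.35 (SE) did not pass (edgeR adjusted p = 0.41). In the 9-month libraries Nlrp3 had 4.02, 3.53, 1.29, 4.52 and 2.51 CPM, so 4 of 5 were above the highest 3-month library. Replicate 3 was as low as the lowest of the 3-month libraries, and the change at 9 against 3 months was 0.72 ± 0.33 (SE, edgeR adjusted p = 0.12). Without that library it passed, at an edgeR adjusted p of 0.0424.

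Aim2, the sensor of cytosolic double-stranded DNA, had 8.60, 11.7, 6.68 and 6.42 CPM in the 12-month libraries, against 5.70, 6.65, 4.67, 7.58 and 5.39 CPM in the 3-month libraries. In the 9-month libraries Aim2 had 12.2, 8.35, 6.54, 6.71 and 6.24 CPM. Its highest values, 12.2 and 11.7 CPM, were in 9-month replicate 1 and 12-month replicate 2, both among the libraries high in Cr2. The change at 12 against 3 months was 0.48 ± 0.22 (SE, edgeR adjusted p = 0.123) with those libraries and 0.27 (edgeR adjusted p = 0.282) without them. The trend, at 0.49 ± 0.20 (SE), had an edgeR adjusted p of 0.0685, and passed without 3-month replicate 4, 12-month replicate 3 or 12-month replicate 4. DESeq2 gave the trend an adjusted p of 0.0484.

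Il1b, the ligand that caspase-1 matures and that macrophages and neutrophils make on stimulation, was scarce and uneven. Il1b had 6.80, 1.22, 0.964 and 0.604 CPM in the 12-month libraries, against 0.675, 0.598, 0.359, 0.583 and 1.09 CPM in the 3-month libraries. A single 12-month library stood far above the rest, replicate 2 was just above the highest 3-month library, and the other 2 lay inside the 3-month range. The 6-month libraries had 3.75, 0.216, 1.36, 0.290 and 0.697 CPM and the 9-month ones 3.23, 2.02, 1.29, 0.858 and 0.609 CPM. Every age from 6 months on thus had at least 1 library above 3 CPM, and the 3-month libraries did not. The log2 change of 1.84 ± 0.78 (SE) at 12 against 3 months did not pass (edgeR adjusted p = 0.0966), and it ranged from 0.48 to 2.15 when 1 library was left out. It was lowest without 12-month replicate 1. The trend, at 1.75 ± 0.70 (SE, edgeR adjusted p = 0.0649), passed without 6-month replicate 1 or 12-month replicate 4, and DESeq2 gave it an adjusted p of 0.037.

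Il1a, the ligand that acts without processing and is released by dying cells, ranged from 0.625 to 1.53 CPM at 12 months and from 0.215 to 1.97 CPM at 3 months. The log2 change of -0.13 ± 0.48 (SE) was smaller than its error (edgeR adjusted p = 0.879). Il1rn, the antagonist that occupies the receptor without a signal, had 2.89, 5.28, 2.08 and 2.34 CPM in the 12-month libraries, against 4.28, 2.09, 1.36, 2.26 and 5.97 CPM in the 3-month libraries. The ages overlapped in full, with a log2 change of -0.02 ± 0.46 (SE, edgeR adjusted p = 0.98). Within a library the ratio of Il1rn to Il1b CPM had a median of 3.87 and a range of 3.50 to 6.33 at 3 months. The range was 0.366 to 19 at 6 months, 0.537 to 3.00 at 9 months and 0.425 to 4.31 at 12 months. The libraries with the lowest ratios at the 3 older ages were those with the most Il1b at that age. The ratio of Il1b to Il1a CPM reached 10.9 in a 12-month library and 1.67 in a 3-month library, with medians of 1.12 at 12 months and 0.556 at 3 months.

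Il1r1, the receptor that signals for both IL1 ligands, was the most abundant of the 10 genes per length and had the smallest spread over the 19 libraries relative to its mean. Il1r1 had 67.2, 67.3, 59.9 and 50.2 CPM in the 12-month libraries, against 62.4, 75.2, 57.4, 50.8 and 63.9 CPM in the 3-month libraries. The log2 change was -0.02 ± 0.11 (SE, edgeR adjusted p = 0.928), with a 95% interval from -0.24 to 0.20. Its mean was 71.6 ± 4.72 CPM at 6 months and 70.8 ± 9.40 CPM at 9 months (SD, n = 5 each), and neither age passed against 3 months.

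Tnf encodes tumour necrosis factor, which activated macrophages and lymphocytes release, and oocytes and granulosa cells have been reported to make it too. Tnf had 0.313, 0.612, 0 and 0.0756 CPM in the 12-month libraries, against 0.450, 0.149, 0.144, 0.146 and 0.146 CPM in the 3-month libraries. These are 0 to 8 estimated counts, and the count of 0 in 12-month replicate 3 allows up to 0.223 CPM (3 counts, for counting error only). Mean CPM was 0.250 at 12 months and 0.207 at 3 months, a difference of 0.0432 (two-sided exact permutation test, p = 0.73, where the smallest p possible is 0.0159). At 9 months the mean was 0.257 CPM, and the difference from 3 months was 0.0497 (two-sided exact permutation test, p = 0.54, smallest possible 0.00794). At 6 months Tnf ranged from 0.144 to 0.580 CPM around a mean of 0.340 CPM, which was not set against 3 months by this test. The sign of the difference at 12 against 3 months was not stable, since it was -0.109 on the log2(CPM + 0.1) scale and -0.0775 CPM without 12-month replicate 2. The fits without the libraries high in Cr2 did not include Tnf.

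Per kilobase of transcript, which allows genes to be compared, Il1r1 had the highest level at 14 ± 1.85 CPM per kb (SD, n = 19 libraries). Il18 followed at 11.7 ± 3.48, Casp1 at 7.20 ± 2.51 and Pycard at 6.78 ± 2.36 CPM per kb. The levels then dropped to 2.57 ± 0.684 for Aim2, 1.23 ± 0.616 for Il1rn and 1.06 ± 1.18 for Il1b. The lowest were Nlrp3 at 0.618 ± 0.246, Il1a at 0.563 ± 0.256 and Tnf at 0.161 ± 0.108 CPM per kb. Pycard was above Aim2 and Il1a above Tnf in all 19 libraries, and Il18 above Casp1 and Aim2 above Il1rn in 18. Il1r1 was above Il18 in 14, and Casp1 above Pycard in 12. The order of Il1b and Nlrp3 (10 of 19) and of Nlrp3 and Il1a (11 of 19) was near even. Lengths are those of the longest principal transcript within the RefSeq gene, and the order depends on that choice. Exons of Pycard and Il1a overlap those of Gm45205 and Gm14023 on the opposite strand. Whether the counting used strand is not given, so reads of those genes and their partners cannot be told apart.

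Casp1 and Pycard are expressed in macrophages, and markers of these cells were also higher at the older ages. Of the 14 macrophage and monocyte markers 6 rose and 0 fell at 12 against 3 months and 10 rose and 0 fell at 9 against 3 months, with median log2 changes of 0.62 and 0.69, while 10.9% and 11.3% of all tested genes rose and 11.5% and 13.6% fell. Without the libraries high in Cr2 5 and 3 rose. Without 12-month replicate 2 alone, 3 rose at 12 against 3 months. In the 12-month libraries the summed markers were 1044, 1202, 848 and 764 CPM where Casp1 had 19.5, 16.5, 13.1 and 8.99 CPM, so replicate 4 was lowest in both. Neither gene followed the sum in every library. In 12-month replicate 1, at a sum of 1044 CPM, Pycard had 30.5 CPM and Casp1 19.5 CPM. In replicate 2, at 1202 CPM, they had 18 and 16.5 CPM. In 9-month replicate 4, at a sum of 1049 CPM, Pycard had 12.1 CPM, inside its 3-month range, and Casp1 10.8 CPM. In 9-month replicate 3, at 922 CPM, they had 18.7 and 13.8 CPM. The highest sum of all, 1344 CPM in 9-month replicate 2, came with 16.5 CPM of Casp1 and 20.3 CPM of Pycard. Il18 had its highest value, 18.1 CPM, where the sum was 1049 CPM, and 8.23 CPM in a 12-month library where it was 848 CPM. The part of the macrophage markers in these results was not tested. In bulk tissue more cells of a type and more RNA per cell cannot be told apart.

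**Figure D3:**
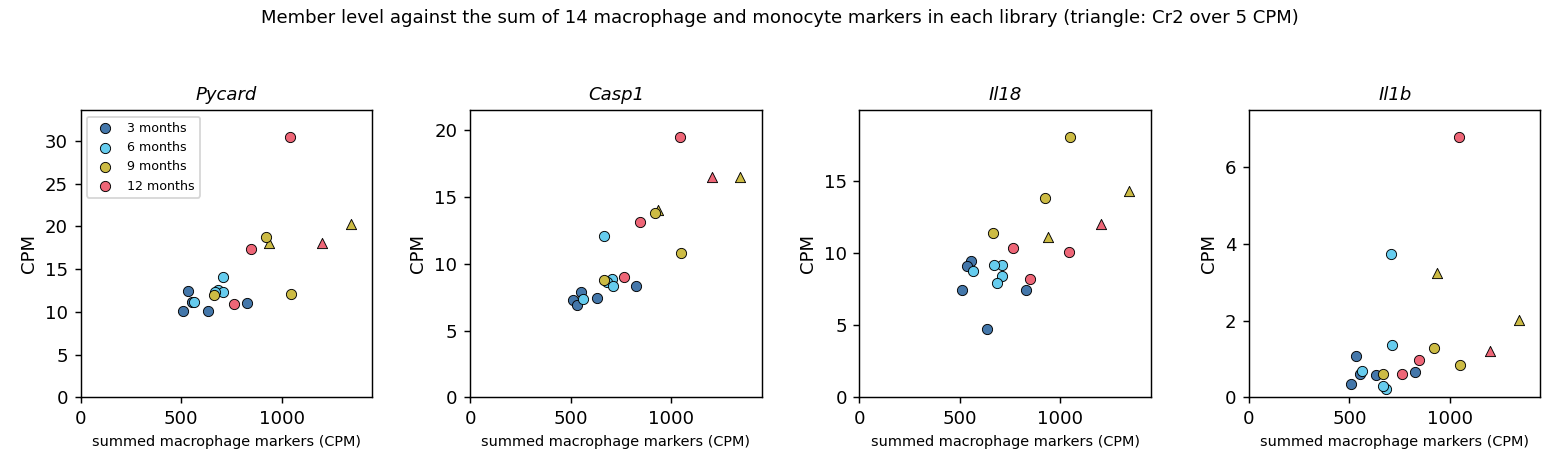
CPM of Pycard, Casp1, Il18 and Il1b in each library (vertical axes) against the summed CPM of 14 macrophage and monocyte markers (horizontal axes), coloured by age, with triangles for the 3 libraries with Cr2 over 5 CPM. Libraries with sums above 828 CPM, the highest at 3 months, are all of 9 or 12 months, and the Pycard value of 30.5 CPM and the Il1b value of 6.80 CPM come from the same 12-month library.

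Over the 19 libraries, which differ in age and marker levels, the genes most like each of the 9 in log2 CPM were listed as a description. Casp1 was closest to Blnk, an adaptor of B cell receptor signalling (r = 0.93), the guanylate-binding protein gene Gbp9 (0.92) and Ctsh, a lysosomal protease (0.92). Pycard was closest to Cyth4 (0.92), Casp1 (0.90) and Tnfsf10, which encodes the death ligand TRAIL (0.90). Aim2 was closest to Ikzf1, a lymphoid transcription factor (0.89), Slamf8 (0.87) and Ccdc88b (0.85). For Il18 they were Ppp2r5c (0.92), Rab13 (0.88) and Mfsd1 (0.87), and for Il1b Klrb1b (0.88), Lrrc25 (0.87) and Itgad (0.86), the last an integrin of macrophages. By rank (Spearman) those 3 correlated with Il1b at 0.68, 0.85 and 0.80. Il1b and Pycard both had their highest value in 12-month replicate 1, and the part of that library in the Il1b correlations was not tested. Il1r1 was closest to Uhmk1 (0.86), Mob1a (0.80) and Lix1l (0.80). The highest correlations of Nlrp3 (Vcam1 0.78, Gopc 0.77, Xkr4 0.74), Il1a (Vash2 0.78, Cyth1 0.76, Tnfrsf1b 0.74) and Il1rn (Cxcl10 0.72, Sele 0.71, Gp49a 0.70) were lower. Among the 9 genes themselves the highest correlations after that of Pycard and Casp1 were Il1b and Pycard at 0.77, Casp1 and Aim2 at 0.65, Nlrp3 and Aim2 at 0.63, Aim2 and Il1b at 0.63 and Il1a and Il1rn at 0.62.

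Beyond these genes, other inflammasome genes rose in part. Of 18 tested of 20 listed, 5 rose and 0 fell at 12 against 3 months (Naip1, Naip2, Naip6, Casp4 and Ninj1), and 8 rose and 0 fell along the trend, with median log2 changes of 0.46 and 0.62. Of all tested genes 10.9% rose and 11.5% fell at 12 against 3 months, and 14.7% rose along the trend. At 9 against 3 months 5 rose and 1 fell, where 11.3% and 13.6% of all tested genes did. The gene that fell was Nlrp10, a family member without the ligand-sensing repeats, at -1.49 ± 0.36 on the log2 scale (SE, edgeR adjusted p = 0.0057), named after its values were seen. Casp4, the caspase that senses bacterial lipopolysaccharide inside cells, had 8.17 ± 3.68 CPM in 12-month libraries (SD, n = 4), against 3.78 ± 1.62 CPM in 3-month libraries (SD, n = 5). Its log2 change at 12 against 3 months was 1.11 ± 0.34 (SE, edgeR adjusted p = 0.0242). That call held in 14 of 19 fits that left out 1 library, and without the libraries high in Cr2 it was 0.85 (edgeR adjusted p = 0.0603), while the trend, at 1.21 ± 0.31, held in all. Ninj1, which ruptures the membrane of dying cells, rose by 0.36 ± 0.11 on the log2 scale (SE, edgeR adjusted p = 0.023), and passed in 15 of 19 such fits. Naip2, a receptor for bacterial secretion proteins, rose by 0.85 ± 0.22 (SE, edgeR adjusted p = 0.0107) and held with any 1 library left out, and Naip1 rose by 1.22 ± 0.43 (SE, edgeR adjusted p = 0.0462) but held in 5 of 19. The Naip genes are near copies whose reads may be split by the counting, so their values are uncertain. Gsdmd, the pore protein gene, had a log2 change of 0.24 ± 0.12 (SE, edgeR adjusted p = 0.145), and was named after its values were seen. The count of 5 at 12 against 3 months was 3 higher and 1 lower without the libraries high in Cr2, and 1 higher without 3-month replicate 3. Without the libraries high in Cr2 2 rose and 1 fell at 9 against 3 months, and 5 rose and 1 fell along the trend. With 1 library left out, 1 to 7 rose at 9 against 3 months (1 without 9-month replicate 3) and 4 to 9 along the trend.

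**Figure D4:**
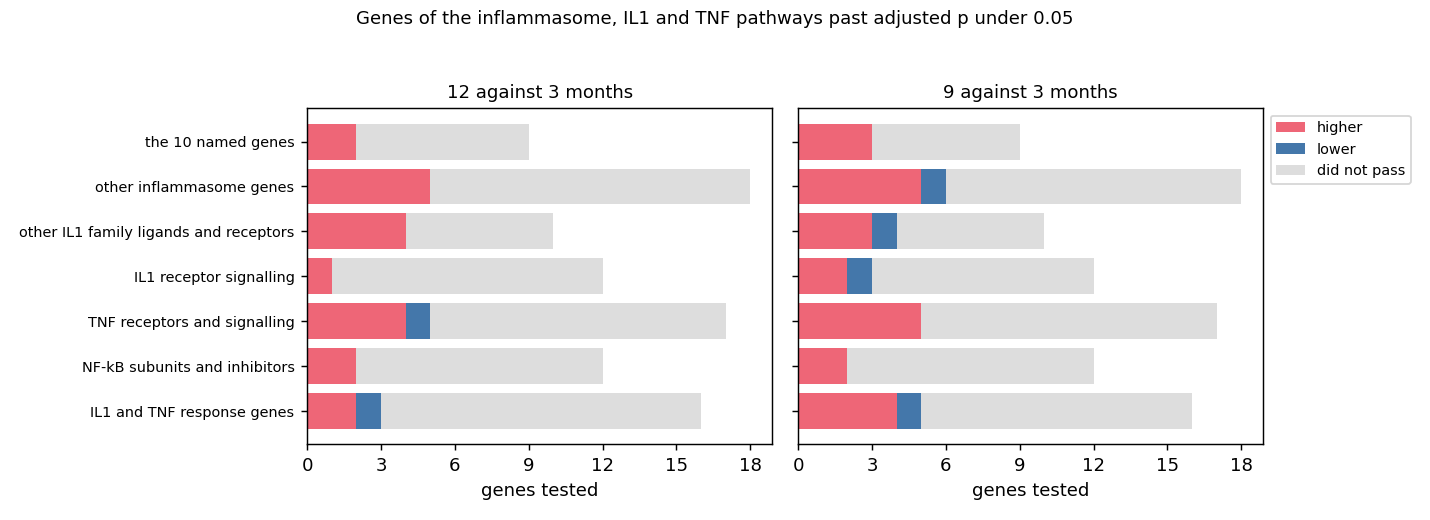
Number of tested genes (horizontal axes) in each list that were higher, lower or did not pass an adjusted p under 0.05 at 12 and at 9 against 3 months. The other inflammasome genes have 5 higher of 18 and the other IL1 family ligands and receptors 4 higher of 10 at 12 months, whereas IL1 receptor signalling has 1 higher of 12.

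Among the other IL1 family ligands and receptors, 4 of the 10 tested of 14 listed rose and 0 fell at 12 against 3 months and along the trend, and that count was 4 with any 1 library left out and 4 of 11 without the libraries high in Cr2. The shares over all tested genes were 10.9% up and 11.5% down at 12 against 3 months and 14.7% up and 14.8% down along the trend. At 9 against 3 months 3 rose and 1 fell, against 11.3% and 13.6%, and without the libraries high in Cr2 2 of 11 rose and 0 fell. The one that fell was Il1f9, which encodes an IL-36 ligand, at -1.2 ± 0.38 (SE, edgeR adjusted p = 0.0275), named after its values were seen. Il18r1, the ligand-binding chain of the IL-18 receptor, had 7.38 ± 2.34 CPM in 12-month libraries (SD, n = 4), against 2.90 ± 1.27 CPM in 3-month libraries (SD, n = 5), a log2 change of 1.35 ± 0.30 (SE, edgeR adjusted p = 0.00541). Il18bp, the secreted protein that traps IL-18, had 11.7 ± 4.21 CPM in 12-month libraries, against 5.83 ± 2.11 CPM in 3-month libraries, a change of 1.0 ± 0.26 (SE, edgeR adjusted p = 0.0103). This receptor chain and the trap of IL-18 were thus both higher at 12 months, when Il18 itself, at 0.41 ± 0.18 (SE), did not pass. Il18rap, the other receptor chain, had a log2 change of 1.41 ± 0.91 (SE, edgeR adjusted p = 0.275), and was named after its values were seen. Sigirr, an inhibitory receptor of the family, had 9.82 ± 1.16 CPM in 12-month libraries, against 5.22 ± 0.894 CPM in 3-month libraries, a change of 0.91 ± 0.17 (SE, edgeR adjusted p = 0.00196). Il1rl1, the receptor for IL-33, rose by 0.99 ± 0.24 at 12 against 3 months (SE, edgeR adjusted p = 0.00822) and by 1.53 ± 0.23 at 9 against 3 months (SE, edgeR adjusted p = 0.000215). Il33 itself had a log2 change of 0.21 ± 0.18 at 12 against 3 months (SE, edgeR adjusted p = 0.426), and Il1rap, the partner chain of Il1r1, one of 0.07 ± 0.14 (SE, edgeR adjusted p = 0.745), both named after their values were seen.

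Of the genes that carry the IL1 signal below the receptor, 1 of 12 rose and 0 fell at 12 against 3 months, with a median log2 change of 0.05, a share near the 10.9% of all tested genes that rose. At 9 against 3 months 2 rose and 1 fell, the kinase gene Map3k7 (-0.23 ± 0.07, SE, edgeR adjusted p = 0.0202, named after its values were seen), and without the libraries high in Cr2 0 did. The gene that rose at 12 against 3 months was Irak4, the first kinase of the pathway, at 17.8 ± 3.43 CPM in 12-month libraries (SD, n = 4), against 12.1 ± 2.07 CPM in 3-month libraries (SD, n = 5), a change of 0.55 ± 0.17 (SE, edgeR adjusted p = 0.0237) that passed in 15 of 19 fits that left out 1 library. Along the trend Irak3, a brake on the pathway, also rose, by 0.70 ± 0.23 (SE, edgeR adjusted p = 0.0249), and Tab3 fell by 0.25 on the log2 scale, with an SE of 0.08 (edgeR adjusted p = 0.0178). Neither passed without the libraries high in Cr2.

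In the TNF list 4 of 17 rose and 1 fell at 12 against 3 months, against the backgrounds of 10.9% and 11.5% given above. Tradd, the adaptor of the TNF receptor, had 19.9 ± 1.76 CPM in 12-month libraries (SD, n = 4), against 13.9 ± 1.36 CPM in 3-month libraries (SD, n = 5), a log2 change of 0.52 ± 0.11 (SE, edgeR adjusted p = 0.00467) that held with any 1 library left out. Ripk3, the kinase of necroptosis, rose by 0.98 ± 0.32 (SE, edgeR adjusted p = 0.0325) and passed in 14 of 19 such fits. Ltb, a TNF family ligand of lymphocytes, rose by 2.53 ± 0.68 (SE, edgeR adjusted p = 0.015), and by 1.15 without the libraries high in Cr2 (edgeR adjusted p = 0.0205), but did not pass without 12-month replicate 2 alone (edgeR adjusted p = 0.136). Without that library 1 gene of the list rose. The other riser, Casp8 (0.23 ± 0.08, SE, edgeR adjusted p = 0.0362), and the gene that fell, Adam17, the protease that sheds TNF (-0.19 ± 0.06, SE, edgeR adjusted p = 0.0433), were named after their values were seen. The receptor genes Tnfrsf1a (0.09 ± 0.07) and Tnfrsf1b (-0.03 ± 0.16), also named after their values were seen, did not pass at 12 against 3 months. At 9 against 3 months Tnfrsf1a rose by 0.33 ± 0.07 (SE, edgeR adjusted p = 0.00211), and Tnfrsf1b did not pass (0.25 ± 0.15). In that comparison 5 of the 17 rose and 0 fell, against 11.3% and 13.6% of all tested genes, and 2 rose without the libraries high in Cr2. Traf1 rose along the trend, by 1.02 ± 0.31 (SE, edgeR adjusted p = 0.0186), but not without the libraries high in Cr2.

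Of 12 NF-kB subunits and inhibitors 2 rose and 0 fell at 12 against 3 months, where 10.9% of all tested genes rose and 11.5% fell. Without the libraries high in Cr2 1 rose and 1 fell. Nfkbia, the inhibitor that NF-kB itself induces, had 97.3 ± 13.5 CPM in 12-month libraries (SD, n = 4), against 74.6 ± 6.51 CPM in 3-month libraries (SD, n = 5), a log2 change of 0.38 ± 0.11 (SE, edgeR adjusted p = 0.023). Ikbkb, a kinase that marks the inhibitors for decay, rose by 0.23 ± 0.07 (SE, edgeR adjusted p = 0.0225). Each passed in 16 of 19 fits that left out 1 library, and neither without 12-month replicate 2. Along the trend Nfkb2 (0.46 ± 0.14, SE, edgeR adjusted p = 0.016) and Nfkbie (0.73 ± 0.25, SE, edgeR adjusted p = 0.0307) rose as well, though neither did without the libraries high in Cr2.

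Of the IL1 and TNF response genes, 2 of 16 tested of 20 listed rose and 1 fell at 12 against 3 months, shares near the 10.9% and 11.5% of all tested genes. Along the trend 4 rose and 1 fell, against 14.7% and 14.8%, and without the libraries high in Cr2 1 rose and 2 fell. Lcn2, which binds bacterial iron carriers, had 106 ± 75.6 CPM in 12-month libraries (SD, n = 4), against 13 ± 1.29 CPM in 3-month libraries (SD, n = 5), a log2 change of 3.02 ± 0.41 (SE, edgeR adjusted p = 0.000387). It held with any 1 library left out and was 3.29 without the libraries high in Cr2. Nos2, the inducible nitric oxide synthase, had 18.3 ± 6.28 CPM in 12-month libraries, against 55.4 ± 12.7 CPM in 3-month libraries, a log2 change of -1.60 ± 0.35 (SE, edgeR adjusted p = 0.00481) that also held. Vcam1, an adhesion molecule of activated endothelium, rose by 0.68 ± 0.23 (SE, edgeR adjusted p = 0.0407), but passed in 12 of 19 fits that left out 1 library and not without the libraries high in Cr2 (0.41, edgeR adjusted p = 0.128). Icam1, another adhesion molecule, rose along the trend, by 0.68 ± 0.22 (SE, edgeR adjusted p = 0.0262), and not without those libraries. There were 2 genes of this list that were higher at 9 against 3 months and not at 12 against 3 months, the matrix proteases Mmp3 (2.34 ± 0.45, SE, edgeR adjusted p = 0.00119) and Mmp9 (1.19 ± 0.19, SE, edgeR adjusted p = 0.000369), both named after their values were seen. At 12 against 3 months their log2 changes were 1.06 ± 0.47 and 0.16 ± 0.20, and the difference between 12 and 9 months passed for neither (edgeR adjusted p = 0.238 for Mmp3 and 0.0645 for Mmp9).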

How the data were processed

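Bulk RNA-seq libraries were placed by their age label. Per the file headers the authors deposited raw gene values, which are estimated counts, on RefSeq models and the mm10 build, per the submitters' processing notes. The sources used here name no aligner, counting method or use of strand. A second kind of value the authors deposited is log2, normalized between libraries and set to the median of the 3-month libraries, per the file headers, and these served 1 alternative. Each table has 1 further column that matches no sample and was not used.

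Estimated counts were rounded and tested with edgeR 4.0.16 (quasi-likelihood, robust, TMM scaling, a mean per age or a linear trend in age, all 19 libraries in 1 fit) under R 4.3.3. The low-count filter used a minimum count of 10 and a minimum total of 15 and left 15518 genes. P-values were adjusted over all of these by Benjamini-Hochberg, with a threshold of 0.05. The trend is the change over 9 months. The SE of an edgeR log2 change is its size divided by the square root of the F statistic. Intervals use normal quantiles on that SE, so they are somewhat narrower than the F test implies. That of Aim2 at 9 against 3 months, for 1, leaves out 0 at an unadjusted edgeR p of 0.0589. CPM use TMM-scaled totals, and log2 CPM a prior count of 2. A gene below the filter had a two-sided exact permutation test on CPM (scipy 1.17.1). The script was tested on simulated data. Alternatives were no filter, at least 1 CPM in 4 libraries, DESeq size factors, DESeq2 1.42.0, limma-voom with sample weights and limma (3.58.1) on the authors' log2 values, only the ages compared, without libraries over 5 CPM of Cr2, and each library left out. Those for pathway genes were chosen after seeing the data.

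Pairs of libraries of 1 age differed by more than counting error (chi-square over degrees of freedom, 5.11 to 38.81). The 10 genes, the 11 further lists (151 entries) and the libraries left out for Cr2 were chosen with earlier results of these data known. All 10 genes were named. From each further list up to 4 genes that passed at 12 against 3 months or along the trend were picked, by smallest p. Where none passed, the 2 most abundant tested genes were picked. These are named above, except those of the macrophage and lymphocyte lists, which are given as counts and sums. Other genes of these lists were named after their values were seen. The 3 genes of highest Pearson correlation with each tested gene were also named.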

Additional observations from a re-analysis of the deposited data

Results flagged for a closer look

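Among the 40 groups of values, the 10 genes at each of 4 ages, 2 held a library far from the others of its age. Chance flags about 1 in 20 such groups. Il1b was at 6.80 CPM in 12-month replicate 1, against 0.604 to 1.22 CPM in the other 3 libraries of that age, and the gap is 0.90 of the range. The same library held the highest Pycard and Casp1 values of all, at 30.5 and 19.5 CPM. Tnf was at 0.450 CPM in 3-month replicate 1, against 0.144 to 0.149 CPM in the other 4, a gap of 0.981 of the range that amounts to a few counts.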

How the results depend on the processing

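No paired analysis was possible because the labels give no replicate numbers shared between ages. Apart from fits that left out 1 library, 389 of 406 single-gene comparisons with an alternative kept their direction and their side of the threshold, 6 lost a call and 2 gained one. The 9 that turned had not passed, and their cause was not tested. They were the log2 changes of Il1rn at 12 against 3 months by limma-voom (0.0) and on the authors' log2 values (0.08), Il1a at 6 against 3 months by limma-voom (0.25) and Il1a along the trend with DESeq size factors (0.0), DESeq2 (0.0) and limma-voom (0.06). Without the libraries over 5 CPM of Cr2 they were Aim2 (-0.10) and Il1b (-0.39) at 9 against 6 months and Il1r1 along the trend (-0.07). The number of the 9 genes past the threshold fell to 1 at 9 against 3 months without those libraries, against 3, and was 5 along the trend by DESeq2, against 3. For all genes at 6 against 3 months it was 43 by DESeq2, 174 by limma-voom, 34 with only the ages compared and 8 without the Cr2 libraries, against 3, and at 12 against 9 months 256 by DESeq2, against 0. The Tnf difference at 12 against 3 months turned on the log2(CPM + 0.1) scale (-0.109).

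Leaving out 1 library gave 949 unchanged comparisons of 1026, with 16 calls lost, 9 gained and 52 turned, among genes that had not passed. Counts of the 9 genes ran over 1 to 2 (12 against 3 months), 2 to 3 (9 against 3), 1 to 2 (9 against 6) and 2 to 5 (trend), and were 0 elsewhere. Counts of all genes ran over 2124 to 3806 (12 against 3; lowest without 12-month replicate 3), 2784 to 4484 (9 against 3), 0 to 5 (6 against 3), 1721 to 3212 (9 against 6; lowest without 6-month replicate 5), 0 to 278 (12 against 9) and 3798 to 4853 (trend). The Tnf difference ran over -0.0775 to 0.127 at 12 months and -0.000224 to 0.111 at 9 months. Log2 changes that turned ran, at 12 against 3 months, over -0.40 to 0.19 (Il1a), -0.39 to 0.33 (Il1rn) and -0.08 to 0.06 (Il1r1). At 9 against 3 months they ran over -0.05 to 0.53 (Il1a) and -0.64 to 0.06 (Il1rn), and at 6 against 3 months over -0.33 to 0.25 (Il1a), -0.06 to 1.16 (Il1b) and -0.23 to 0.39 (Il1rn). At 9 against 6 months they ran over -0.02 to 1.33 (Il1b) and -0.06 to 0.04 (Il1r1). At 12 against 9 months they ran over -0.08 to 0.43 (Pycard), -0.16 to 0.25 (Aim2), -0.77 to 0.97 (Il1b) and -0.10 to 0.62 (Il1rn). Along the trend they ran over -0.24 to 0.28 (Il1a), -0.45 to 0.16 (Il1rn) and -0.07 to 0.09 (Il1r1). The lowest libraries held 0 estimated counts of Tnf, 3 of Il1b, 3.47 of Il1a and 15 of Nlrp3 and of Il1rn.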
